A study of Homo sapiens with 18 samples.

Results

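The genes described here are 10 members of the immunoglobulin group: the heavy chain constant genes IGHA1, IGHA2, IGHG1, IGHG2, IGHG3 and IGHM, the light chain constant genes IGKC, IGLC2 and IGLC3, and JCHAIN, which encodes the joining chain of polymeric immunoglobulin. They were chosen by symbol among the 62703 genes counted, and each symbol matched 1 Ensembl identifier. They were measured by stranded total RNA-seq in 18 libraries of multiple myeloma cell lines, tumours of plasma cells grown in culture. Libraries were labelled AMO1, H929 (the line NCI-H929) or LP1, and in each line 3 were labelled SCR, a scrambled control oligonucleotide, and 3 were labelled gN1E, a GapmeR directed at the long non-coding RNA NEAT1. A GapmeR is a modified antisense oligonucleotide that leads a nuclear RNA to degradation. Cells took it up without a carrier, and RNA was taken at 48 h. Each line is a single cell line, and neither the labels nor the study's methods say whether the 3 libraries of a group came from separate cultures, so p-values measure only the spread between these libraries. Depth ran from 28061606 to 69937229 counts per library, with medians of 29663430 in AMO1 gN1E and 64358551 in LP1 SCR at the extremes.

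The labels were checked first. NEAT1 was higher, not lower, in the libraries labelled gN1E: its level was 473, 553 and 517 CPM (counts per 1000000, on TMM-scaled library sizes) against 75.7, 78.8 and 90.8 CPM in those labelled SCR in AMO1, a log2 difference of 2.66 (SE 0.0744, edgeR adjusted p = 5.1e-13). The log2 difference was 2.74 (SE 0.0683, edgeR adjusted p = 3.11e-14) under the label H929 and 2.14 (SE 0.190, edgeR adjusted p = 0.0269) under the label LP1. The LP1 value stayed between 2.00 and 2.25 when each library was left out, but its adjusted p then reached 0.176 (SCR B left out), 0.111 (gN1E A), 0.0886 (gN1E B) and 0.0578 (gN1E D). The sample names written inside the deposited tables name the other GapmeR in 18 of 18 libraries and, for the 12 libraries labelled H929 or LP1, the other of these lines. Every library is therefore called by its label, and each direction below is that of the libraries labelled gN1E, where NEAT1 was high, against those labelled SCR, where it was low.

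A plasma cell makes 1 antibody from a heavy chain and a light chain gene that were assembled by recombination of V, (D) and J segments in front of constant genes. Class switching joins the assembled heavy chain V region to a constant gene farther along the locus and deletes the constant genes in between, so that the constant gene used gives the isotype, and the light chain is either kappa, with the constant gene IGKC, or lambda, with the IGLC genes. J chain links IgA or IgM monomers into polymers and is made by plasma cells of many isotypes. AMO1 and NCI-H929 are described as IgA kappa lines and LP1 as an IgG lambda line. On hg38, the heavy chain members lie on the minus strand of chromosome 14, in transcriptional order IGHM (chr14:105851705-105856218), IGHG3 (chr14:105764503-105771405), IGHG1 (chr14:105736343-105743071), IGHA1 (chr14:105703995-105708665), IGHG2 (chr14:105639559-105644790) and IGHA2 (chr14:105583731-105588395). IGKC lies at chr2:88857161-88857683 on the minus strand, IGLC2 at chr22:22900976-22901437 and IGLC3 at chr22:22906342-22906803 on the plus strand, and JCHAIN at chr4:70655541-70681817 on the minus strand. All values are read pairs over the exons of these genes.

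Several members are near copies of each other, and read pairs that matched more than 1 place or more than 1 gene were not counted, so their sequences bear on every count below. The hinge part of exon 2 separates both IgA subclasses. Of exon 2, IGHA1 has 360 bases and IGHA2 has 321. An alignment of them left 39 bases in IGHA1 only, shown here in capitals and placed at bases 4 to 42 of the exon, and 16 further differing bases over the whole exon. The first 120 bases of this exon in IGHA1 (chr14:105708025-105708144, minus strand) and the first 81 in IGHA2 (chr14:105587794-105587874, minus strand) read, 5′ to 3′ on the hg38 reference:
IGHA1: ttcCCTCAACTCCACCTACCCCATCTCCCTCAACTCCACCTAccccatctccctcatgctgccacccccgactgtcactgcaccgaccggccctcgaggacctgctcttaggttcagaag
IGHA2: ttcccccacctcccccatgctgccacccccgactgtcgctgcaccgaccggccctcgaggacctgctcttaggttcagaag

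The lambda constant genes are closer still. The coding parts of IGLC2 and IGLC3, 317 bases each, differed at 3 bases, while IGLC1, which is not a member, differed from IGLC2 at 15 and from IGLC3 at 16. The first 120 coding bases of each are shown, with the bases that differ among the genes in capitals, from chr22:22895375-22895494 for IGLC1, chr22:22900976-22901095 for IGLC2 and chr22:22906342-22906461 for IGLC3, all on the plus strand:
IGLC1: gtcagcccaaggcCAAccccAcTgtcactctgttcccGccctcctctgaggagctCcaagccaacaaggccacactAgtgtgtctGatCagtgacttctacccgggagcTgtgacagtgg
IGLC2: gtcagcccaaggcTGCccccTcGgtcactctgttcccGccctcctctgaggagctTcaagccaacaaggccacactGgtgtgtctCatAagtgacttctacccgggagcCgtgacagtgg
IGLC3: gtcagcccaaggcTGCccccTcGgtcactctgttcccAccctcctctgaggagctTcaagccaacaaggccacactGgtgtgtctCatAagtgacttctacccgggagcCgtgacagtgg

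Exact copies of 150 bases, the length of 1 read, were found at 7.67% of the positions of IGLC2 and of IGLC3, at 9.40% of those of IGHG1 and at 7.96% of those of IGHG2. None was found in IGHA1, IGHA2, IGHG3, IGHM or IGKC among the genes compared. IGLC1 had 0 counts in 18 of 18 libraries: each of its 460 exon bases also lies in an exon of IGLL5, an immunoglobulin lambda-like gene on the same strand. A lambda transcript that uses IGLC1 is thus not counted under IGLC1, and the light chain class below rests on IGKC, IGLC2, IGLC3, IGLC6 and IGLC7.

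IGHA1 led the heavy chain in AMO1, with IGKC as the light chain. Levels between genes are compared as CPM per kb of exon. Over the 6 AMO1 libraries IGHA1 reached 5447 CPM per kb, 88.9% of the summed level of the 9 heavy chain constant genes, and IGHA2 followed with 10.9%. The 4 gamma genes together made 0.177% ± 0.0102 (SD, n = 6). IGHG1, the constant gene of IgG1, was at 33 to 113 counts, IGHG3 at 6 to 32 counts, and IGHG2, which lies downstream of IGHA1, was the highest gamma gene with 704 to 1978 counts. IGKC held 99.99% ± 0.0024 (SD, n = 6) of the light chain constant counts, IGLC2 8 to 54 counts and IGLC3 3 to 18 counts. The order of levels per kb was IGKC at 19810.2, IGHA1 at 5447, JCHAIN at 2380.2, IGHA2 at 660.02 and IGHG2 at 10.0, and the ranges of these 5 genes did not overlap. IGLC2, IGHG1, IGLC3 and IGHG3 followed at 1.24, 0.532, 0.414 and 0.146, and the ranges of IGLC2 and IGHG1 overlapped, as did those of IGHG1 and IGLC3, while IGLC3 and IGHG3 did not overlap.

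The libraries labelled H929 held the same leading genes and a second set beside them. IGHA1 was at 6203 CPM per kb and made 84.7% of the heavy chain level, and IGHA2 made 10.5%. The gamma genes made 4.83% ± 0.185 (SD, n = 6), and IGHG1 was 72.5% ± 0.895 of their level. IGHG1 had 22349 to 45972 counts here, IGHG3 had 3045 to 6260, IGHG2 had 2127 to 4234, and IGHG4, which is no member, had 3875 to 6793. IGKC made 99.8% ± 0.0269 of the light chain constant counts, while IGLC2, at 473 to 1102 counts, was the highest of IGLC2, IGLC3, IGLC6 and IGLC7. IGLC1 could not be ranked, since its exon bases also lie in IGLL5. The lambda V segment counts given further on were far higher than the IGLC2 counts. After IGKC at 17446, IGHA1 at 6203, JCHAIN at 2295 and IGHA2 at 773, the order per kb went on with IGHG1 at 256, IGHG3 at 33.3, IGLC2 at 31.9, IGHG2 at 23.9 and IGLC3 at 0.722. The ranges of IGHG3 and IGLC2 overlapped, as did those of IGLC2 and IGHG2.

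The libraries labelled LP1 held a kappa light chain with almost no heavy chain. All 9 heavy chain constant genes together had 502 to 864 counts per library, against 220636 to 604960 in AMO1 and 336759 to 734748 under the label H929. IGHA1 was still the highest of them, with 300 to 495 counts, and the share of the leading gene was 63.6% of this small level. IGHE, the constant gene of IgE, came next with 25.0% and 128 to 267 counts, more than its 4 to 17 counts in AMO1 and 9 to 31 counts under the label H929. IGHG1 had 2 to 14 counts, IGHG2 0 to 14 counts and IGHG3 3 counts over 6 libraries, with 4 of them at 0. IGKC had 280106 to 464145 counts, 99.9% ± 0.0132 (SD, n = 6) of the light chain constant counts. Per kb the order was IGKC at 13253, JCHAIN at 2737, IGLC2 at 13.4, IGHA1 at 5.71, IGLC3 at 2.30 and IGHA2 at 0.917, with no overlap between neighbours. IGHG1, IGHG2 and IGHG3 followed at 0.0524, 0.0286 and 0.00392, each overlapping the next. The heavy chain level was 0.000674 of the light chain level per kb as a mean, against 0.308 in AMO1 and 0.419 under the label H929. Since LP1 is described as IgG lambda, IGKC at this level and IGHG1 at this count went against the label.

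IGHM, the constant gene of IgM and the gene nearest to the assembled V region before any switch, had 0 counts in 17 of 18 libraries and 3 counts in H929 SCR C. A count of 0 allows at most 3 counts, or 0.102 CPM in the shallowest library, and this limit covers counting error only.

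**Figure D1:**
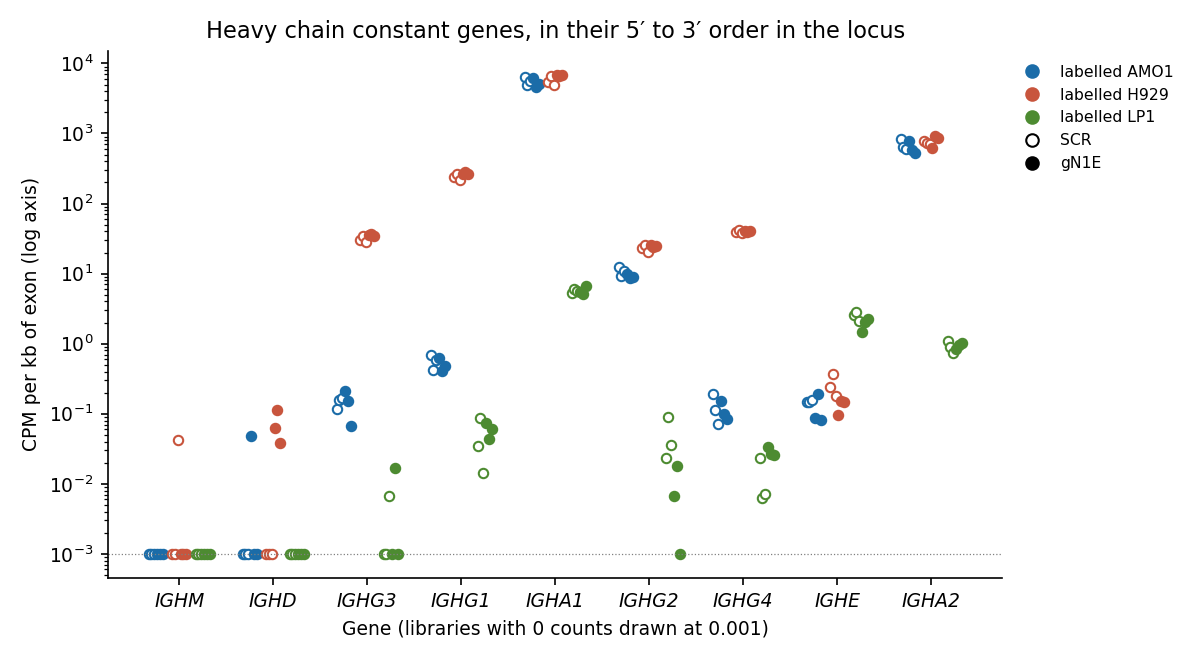
Level of each heavy chain constant gene in CPM per kb of exon (log axis) in each of the 18 libraries, in the order of the genes along the locus. Colours give the line label, open points SCR and filled points gN1E, and libraries with 0 counts are drawn at the dotted line. IGHA1 and IGHA2 are high under the labels AMO1 and H929, the gamma genes IGHG3, IGHG1 and IGHG4 under H929, and none under LP1.

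Values of the leading members across libraries showed how far apart the labels lay. IGHA1 was at 9057, 6895 and 8083 CPM in AMO1 SCR A, C and D and at 8667, 6642 and 7132 CPM in AMO1 gN1E A, C and D. It was at 7795, 9271 and 7092 CPM in H929 SCR A, B and C and at 9811, 9385 and 9573 CPM in H929 gN1E A, B and C. Under the label LP1 its values lay between 7.29 and 9.54 CPM. The ranges under AMO1 and H929 overlapped, and those under LP1 lay far below them. In a joint edgeR fit of the 18 libraries, IGHA1 was higher in AMO1 than under the label LP1 by 9.90 on the log2 scale (SE 0.134, edgeR adjusted p = 2.86e-17). The IGHA1 difference for AMO1 minus H929 was -0.18 (SE 0.0893, edgeR unadjusted p = 0.0619, adjusted p = 0.119). For IGHA2, the second IgA gene, the corresponding differences were 9.48 (SE 0.196) and -0.23 (95% interval -0.47 to 0.01, edgeR adjusted p = 0.159). The AMO1-H929 difference of both IgA genes passed the threshold in limma-voom and without AMO1 gN1E A, with 7 of 9 members called in each case. For this pair limma-voom called 11859 of 26436 genes, and the main fit called 44.4%. IGLC3 missed the threshold (edgeR adjusted p = 0.0509) and passed with total counts as the scaling and without H929 SCR B, SCR C or gN1E B. IGHA2 counts were 12.2% ± 1.36 of IGHA1 counts in AMO1, 12.7% ± 2.09 under the label H929 and 16.3% ± 2.92 under the label LP1 (SD, n = 6 each). Whether read pairs of IGHA1 were placed on IGHA2 was not tested.

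Among the gamma genes, IGHG1 was at 671, 723 and 593 CPM in the H929 SCR libraries and at 734, 781 and 741 CPM in the H929 gN1E libraries. Its levels were 1.12 to 1.92 CPM in AMO1 and 0.0391 to 0.242 CPM under the label LP1, so the labels did not overlap. AMO1 was lower than H929 for each of the gamma members, with a log2 difference (AMO1 minus H929) of -8.89 for IGHG1 (SE 0.117, edgeR adjusted p = 4.02e-18), -7.77 for IGHG3 (SE 0.108, edgeR adjusted p = 5.03e-26) and -1.26 for IGHG2 (SE 0.0732, edgeR adjusted p = 6.27e-12). IGHG2 was nevertheless well above LP1 in AMO1, with 23.9 to 33.7 CPM in each AMO1 library and a log2 difference of 8.89 (SE 0.172). Because the 150-base copies shared by IGHG1, IGHG2 and IGHG4 leave some of their read pairs uncounted, the order among the gamma genes is less certain than that between lines.

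IGKC, the most abundant member in all 18 libraries per kb, varied far less between lines. It was at 10856, 9560.4 and 9845 CPM in AMO1 SCR A, C and D, at 11058, 10400.3 and 10445 CPM in AMO1 gN1E, at 7810.2 to 9653 CPM under the label H929 and at 6526 to 7364 CPM under the label LP1. AMO1 and H929 ranges overlapped slightly, and LP1 lay below both. The log2 difference was 0.58 (SE 0.0410, edgeR adjusted p = 1.13e-14) for AMO1 minus LP1 and 0.18 (SE 0.0409, edgeR adjusted p = 0.000344) for AMO1 minus H929. IGLC2 was at 0.262 to 0.920 CPM in AMO1, 5.30 to 7.30 CPM under the label LP1 and 11.8 to 19.3 CPM under the label H929, 3 ranges that did not overlap. IGLC3 had its highest level under the label LP1, at 0.840 to 1.23 CPM, against 0.102 to 0.273 CPM in AMO1 and 0.137 to 0.718 CPM under the label H929. IGLL5, whose exons cover IGLC1, had 732 to 1820 counts in AMO1, 4200 to 7939 under the label H929 and 7445 to 13512 under the label LP1. Read pairs that overlapped both genes were not counted for either, so lambda transcripts that use IGLC1 may be missing from these counts too.

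JCHAIN was also high under the label LP1, where heavy chain counts were few. It was at 3300.2 to 4138 CPM in AMO1, 3374 to 3658 CPM under the label H929 and 3869.8 to 4402 CPM under the label LP1. The LP1-labelled libraries lay above those labelled H929 without overlap. The log2 difference of JCHAIN was -0.20 for AMO1 minus LP1 (SE 0.0365, edgeR adjusted p = 7.16e-06) and -0.25 for H929 minus LP1 (SE 0.0366, edgeR adjusted p = 1.7e-07). These differences depended on the scaling: with total counts in place of TMM, the median difference of all genes moved from 0.02 to 0.20 for AMO1 minus LP1 and from 0.05 to 0.24 for H929 minus LP1, and JCHAIN differed by -0.02 (adjusted p = 0.599) and -0.06 (adjusted p = 0.103). As a share of all counts JCHAIN made 0.383% ± 0.0289 in AMO1, 0.371% ± 0.00794 under the label H929 and 0.388% ± 0.0162 under the label LP1 (SD, n = 6 each).

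**Figure D2:**
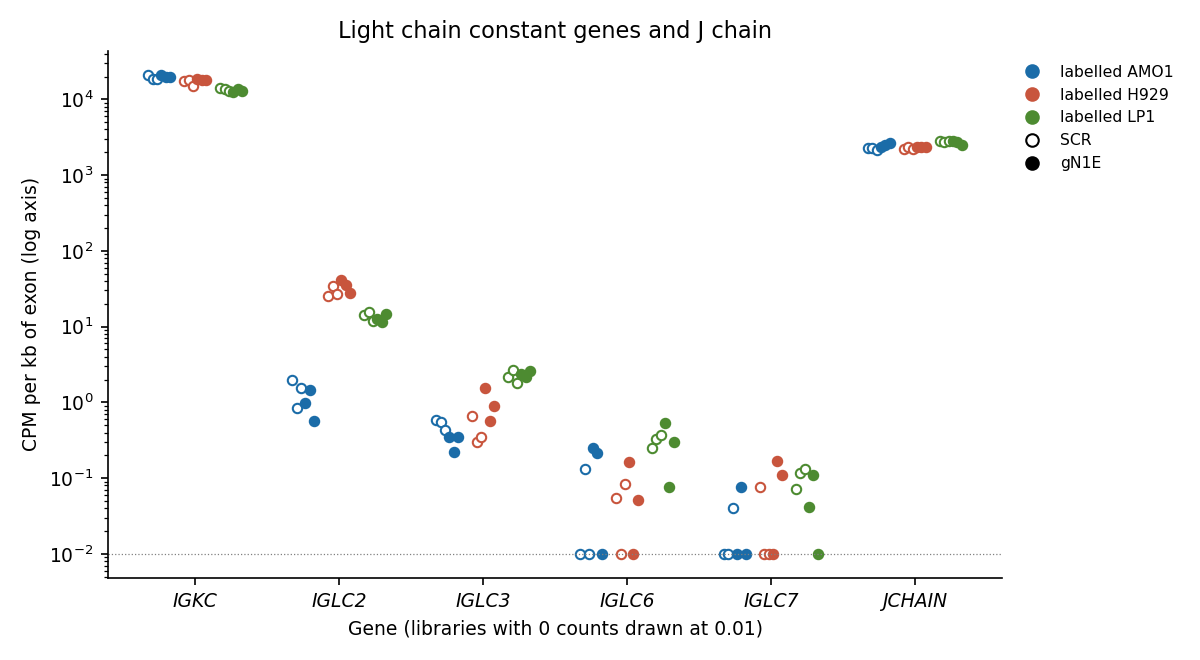
Level of the light chain constant genes and JCHAIN in CPM per kb of exon (log axis) in each of the 18 libraries. Colours give the line label, open points SCR and filled points gN1E, and libraries with 0 counts are drawn at the dotted line. IGKC and JCHAIN are high under every line label, whereas IGLC2 and IGLC3 stay orders of magnitude lower.

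Counted over the members, 9 of 9 tested differed between AMO1 and LP1 in the joint fit (6 higher in AMO1, 3 lower), where 75.9% of all 26436 genes did, and 9 of 9 differed between H929 and LP1 (7 higher in H929, 2 lower), where 74.6% of genes did. Between AMO1 and H929, 5 of 9 differed (IGKC higher in AMO1, IGHG1, IGHG2, IGHG3 and IGLC2 lower), beside 44.4% of genes. Read against these shares, the counts alone say little about the members. The median difference of the 9 members was 3.32 for AMO1 minus LP1 and 9.71 for H929 minus LP1, against 0.02 and 0.05 over all genes. These medians are a description and no test. Most members are heavy chain genes of 1 locus. IGHG3, with 3 counts over the 6 libraries labelled LP1, entered the fit only through the other labels. Without the 6 libraries labelled H929, the AMO1-LP1 fit still called 9 of 9 members, with a log2 difference of 9.90 for IGHA1, 0.58 for IGKC and -0.21 for JCHAIN.

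V segments, named here after their counts were seen, bear on which antibody these constant genes belong to. IGHV3-23 had 55114 to 102058 counts in AMO1, 51156 to 114535 under the label H929 and 0 in each library labelled LP1. The libraries labelled H929 also held the lambda segment IGLV3-21, at 34764 to 69180 counts, and the heavy chain segment IGHV3-30, at 7269 to 14065 counts, neither of which exceeded 2 counts in any other library. The leading kappa segments there, IGKV3-20 and IGKV3D-20, had 30415 to 94075 and 26403 to 40831 counts. IGLV3-21 thus made 36.1% ± 2.04 (SD, n = 6) of the summed counts of IGLV3-21, IGKV3-20, IGKV3D-20 and IGKV3-15 under the label H929, where IGKC made 99.8% of the light chain constant counts. IGKV3-15 led the kappa segments under the label LP1, with 64911 to 110771 counts, against at most 1255 elsewhere. The libraries labelled H929 therefore held a second heavy chain V segment and a lambda V segment beside the V segments they share with AMO1, in the same libraries in which IGHG1 was high. NCI-H929 is described as IgA kappa, so IGHG1 and IGLV3-21 at these counts went against that label. Set beside the line name inside the tables, which is LP1 for the libraries labelled H929, their IGHG1 and IGLV3-21 counts are of the described IgG lambda type and their IGHA1 and IGKC levels are not. For the libraries labelled LP1, where the inner name is H929, IGKC is of the described IgA kappa type and the few IGHA1 counts are not. The origin of the additional transcripts was not tested, and bulk RNA does not show whether both sets came from the same cells.

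With NEAT1, no member passed the threshold in AMO1: edgeR called 0 of 9 tested, limma-voom 0 and DESeq2 0, while edgeR called 2.06% of 22933 genes. At an unadjusted p under 0.05, edgeR had 2 of 9 members, beside 2803 of the 22933 genes. JCHAIN came closest. It was at 3552, 3528 and 3300.2 CPM in AMO1 SCR A, C and D and at 3685, 3875 and 4138 CPM in AMO1 gN1E A, C and D, so all 3 gN1E libraries lay above all 3 SCR libraries. The mean was 3460.2 ± 139 CPM in SCR and 3899 ± 228 CPM in gN1E (SD, n = 3 each), and the log2 fold change was 0.17 (SE 0.0549, 95% interval 0.07 to 0.28, edgeR adjusted p = 0.135). Deviations of libraries with the same replicate letter correlated weakly in AMO1 (Pearson r = 0.198, 0.160 and 0.121), against at most 0.0915 for unlike letters. With the letter as a block 3 of 9 members passed, beside 6.08% of all genes: JCHAIN rose by 0.17 (SE 0.0451, edgeR adjusted p = 0.00927), IGHA2 fell by 0.15 (-0.15, SE 0.0431, adjusted p = 0.0172) and IGHG2 fell by 0.23 (-0.23, SE 0.0672, adjusted p = 0.0211).

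The IgA genes themselves overlapped between the GapmeR labels in AMO1. IGHA1 was at 8011 ± 1083 CPM in SCR and 7480.3 ± 1057 CPM in gN1E (SD, n = 3 each), and the log2 fold change was -0.10 (95% interval -0.37 to 0.18, edgeR adjusted p = 0.853, and 0.204 with the block). IGHA2 was at 1211, 922 and 848 CPM in SCR A, C and D and at 1106, 833 and 742 CPM in gN1E A, C and D, lower in gN1E for each letter but with overlapping groups. IGHG2 was at 33.7, 25.6 and 29.9 CPM in SCR and at 27.3, 23.9 and 24.2 CPM in gN1E, and its adjusted p was 0.298 without the block and 0.0392 without SCR C. IGKC changed by 0.08 (95% interval -0.03 to 0.19, edgeR adjusted p = 0.624). In AMO1, 2 of 9 members, JCHAIN and IGLC3, did not overlap between the labels, beside 17.7% of genes.

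Under the label H929, edgeR also called 0 of 9 members, where 5.47% of 23499 genes were called. At an unadjusted p under 0.05, edgeR had 4 of 9 members, beside 4156 of the 23499 genes. Limma-voom called 1 member, IGHA1, and DESeq2 called 2, IGHA1 and IGHG3, beside 998 and 1317 of the 23499 genes. IGHA1 was at 8053 ± 1112 CPM in SCR and 9589.9 ± 214 CPM in gN1E, with the lowest gN1E library above the highest SCR library and a log2 fold change of 0.24 (SE 0.0738, 95% interval 0.10 to 0.38, edgeR adjusted p = 0.0713, limma-voom 0.0283, DESeq2 0.0125). IGHG1 was at 662 ± 65.1 CPM in SCR and 752 ± 25.5 CPM in gN1E, also without overlap, a log2 fold change of 0.17 (SE 0.0573, edgeR adjusted p = 0.0890). IGHG3 was at 89.4 ± 10.5 CPM in SCR and 103 ± 2.28 CPM in gN1E, a log2 fold change of 0.20 (SE 0.0620, edgeR adjusted p = 0.0706). In these libraries 2 of 9 members did not overlap between the labels, beside 21.7% of genes.

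Whether these genes passed depended on the method, the filter and the libraries. Without a filter on low counts IGHA1, IGHG1 and IGHG3 were called, beside 1629 of 37849 genes. In H929 SCR B the IGHA1 level of 9271 CPM was close to that of the gN1E libraries, and without this library IGHA1 (0.35, edgeR adjusted p = 0.000303), IGHG1 (0.23, adjusted p = 0.0143) and IGHG3 (0.29, adjusted p = 0.000856) were called. That fit called 1272 genes over all. Leaving out gN1E A instead called IGHA2 (0.24, adjusted p = 0.0128), and leaving out gN1E C called IGLC2 (0.41, adjusted p = 0.0213), beside 1013 and 1217 genes over all. IGKC changed by 0.10 (95% interval -0.02 to 0.22, edgeR adjusted p = 0.417) and JCHAIN by 0.06 (95% interval -0.04 to 0.16, edgeR adjusted p = 0.616). Plasma cell markers moved both ways in the same gN1E libraries: SDC1, the surface proteoglycan CD138, rose by 0.22 on the log2 scale, a call lost without 5 of the 6 libraries in turn, and CD38, a surface enzyme, fell by 0.21 (log2 -0.21), a call kept without each of the 6. The part of plasma cell content in the IGHA1 value was not tested. In bulk samples, fewer cells of a type and less RNA per cell cannot be told apart.

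Under the label LP1, edgeR, limma-voom and DESeq2 each called 0 of 8 members, and edgeR called 1.43% of 23165 genes. At an unadjusted p under 0.05, edgeR had 1 of 8 members, beside 3018 of the 23165 genes. IGKC was at 7364, 7139 and 6757 CPM in LP1 SCR A, B and D and at 6526, 7125 and 6678 CPM in LP1 gN1E, overlapping groups with a log2 fold change of -0.04 (95% interval -0.14 to 0.05, edgeR adjusted p = 0.768). JCHAIN was at 4321, 4183 and 4357 CPM in SCR and at 4402, 4256 and 3869.8 CPM in gN1E, with a log2 fold change of -0.02 (95% interval -0.12 to 0.08, edgeR adjusted p = 0.931). The residual IGHA1 signal changed by 0.06 (95% interval -0.15 to 0.27). IGHG2 had 4, 14 and 5 counts in SCR and 1, 2 and 0 counts in gN1E, the only one of the 8 members without overlap, beside 18.1% of genes.

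**Figure D3:**
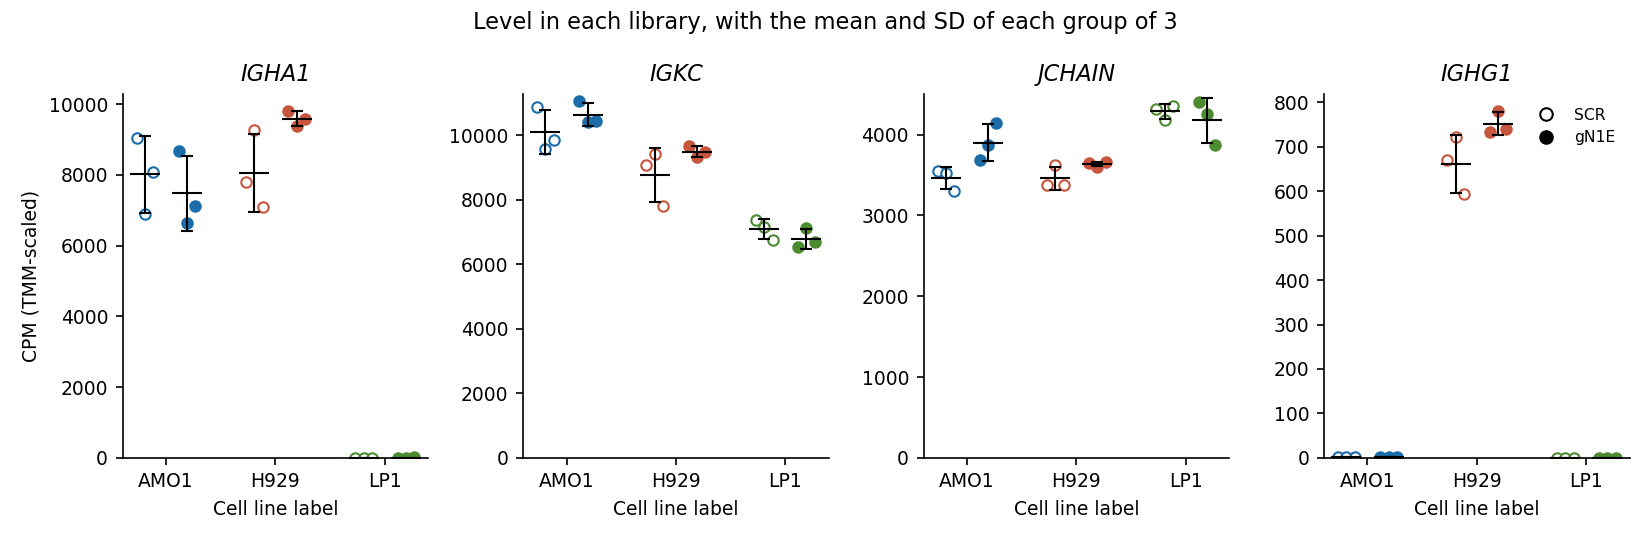
Level of IGHA1, IGKC, JCHAIN and IGHG1 in CPM in each library (points, open for SCR and filled for gN1E), with the mean (bar) and SD (whiskers) of each group of 3, by cell line label. The JCHAIN points of AMO1 gN1E lie above those of AMO1 SCR, and the IGHA1 and IGHG1 points of H929 gN1E lie above those of H929 SCR.

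The change with NEAT1 was compared between lines as an interaction in the joint fit. For each of the 3 pairs of lines, edgeR, limma-voom and DESeq2 called 0 of 9 members. At an unadjusted p under 0.05, edgeR had 2 members for AMO1 against LP1, 2 for AMO1 against H929 and 3 for H929 against LP1. These stand beside 2820, 1771 and 2664 of 26436 genes. Over all genes 0.741%, 0% and 0.874% were called for these pairs, and for AMO1 against H929 the 0 of edgeR stands beside 1771 genes at an unadjusted p under 0.05, 0 by limma-voom and 5 by DESeq2. JCHAIN differed in its change by 0.21 (AMO1 minus LP1, 95% interval 0.07 to 0.35, edgeR adjusted p = 0.226), and IGHA1 by -0.35 (AMO1 minus H929, SE 0.179, edgeR unadjusted p = 0.0717, adjusted p = 0.773). The lowest unadjusted edgeR p among the members was 0.00359 for IGLC3 (AMO1 minus H929, -1.89, adjusted p = 0.621). The change of IGHG2 differed by 2.57 for H929 minus LP1 (edgeR adjusted p = 0.266) and by 2.25 for AMO1 minus LP1 (edgeR adjusted p = 0.344), both among the members at an unadjusted p under 0.05. The gene had 0 to 14 counts per library under the label LP1.

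**Figure D4:**
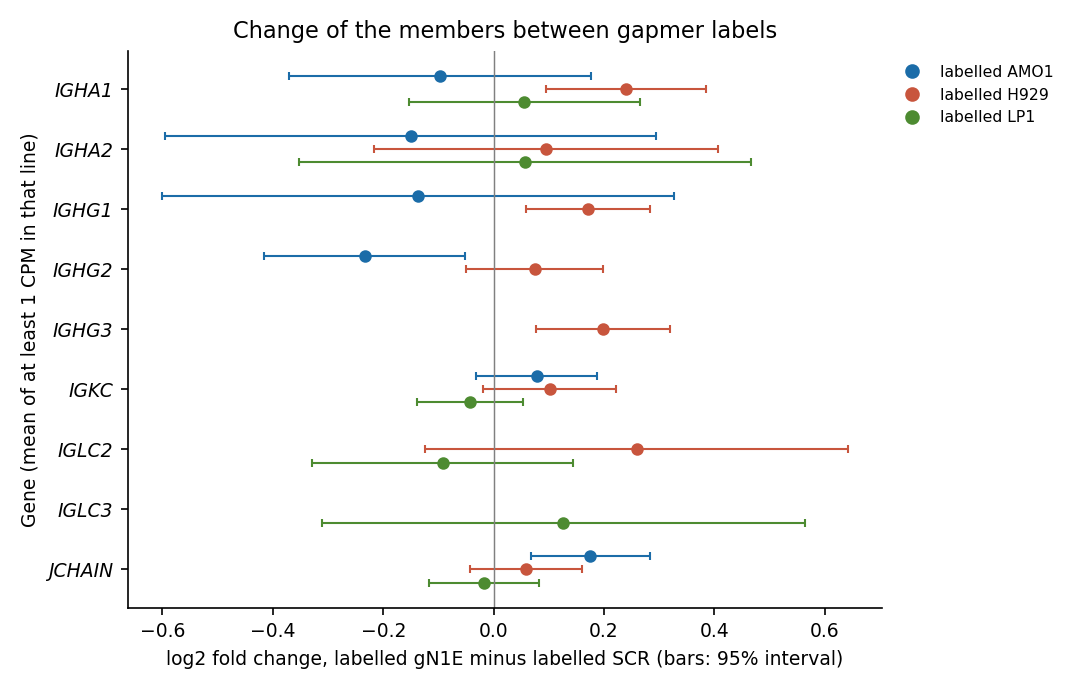
Log2 fold change of each member, libraries labelled gN1E minus those labelled SCR, by line label, for members with a mean of at least 1 CPM in that line. Bars are 95% intervals, taken from the normal distribution, and the vertical line is 0. The intervals of JCHAIN and IGHG2 in AMO1 and of IGHA1, IGHG1 and IGHG3 under the label H929 leave out 0, and none of these passed the threshold after adjustment over all genes.

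As a share of all counts, the 10 members took 2.38% ± 0.166 in AMO1 SCR and 2.36% ± 0.102 in AMO1 gN1E, 2.37% ± 0.180 and 2.54% ± 0.0591 under the label H929, and 1.03% ± 0.0247 and 1.02% ± 0.0154 under the label LP1 (SD, n = 3 each). The exact two-sided permutation p was 0.9, 0.2 and 0.9, where 3 libraries against 3 cannot give less than 0.1. The heavy to light chain ratio per kb was 0.401 ± 0.0206 in H929 SCR and 0.436 ± 0.00779 in H929 gN1E, without overlap (exact permutation p = 0.1), and 0.328 ± 0.0242 and 0.289 ± 0.0320 in AMO1 (exact permutation p = 0.2). The permutation did not use the replicate letters. In AMO1 the ratio was lower in gN1E than in SCR for each letter (A 0.325 and 0.348, C 0.265 and 0.301, D 0.278 and 0.334). Under both GapmeR labels IGHA1 was the highest heavy chain constant gene per kb and IGKC exceeded the IGLC genes that could be counted, in each of the 18 libraries.

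Constant genes outside the members were fitted in the same way. Under the label H929, 2 of the 6 tested genes of this group passed, beside 5.47% of all genes: the gamma pseudogene IGHGP rose from 27.8 ± 0.831 to 32.5 ± 1.68 CPM (log2 fold change 0.21, SE 0.0598, edgeR adjusted p = 0.0340), and IGHD, the constant gene of IgD, had 0 counts in each SCR library and 6, 10 and 4 counts in the gN1E libraries (edgeR adjusted p = 0.0393). Both calls were lost when single libraries were left out, IGHGP without SCR A (0.107), SCR B (0.128), gN1E A (0.0932) or gN1E B (0.188), and IGHD without SCR A (0.150), SCR B (0.0782), SCR C (0.0794) or gN1E A (0.0723). Without gN1E B, IGHD did not reach the count minimum. No gene of this group passed in AMO1 or under the label LP1 with edgeR (0 of 4 tested each, 0 and 2 at an unadjusted p under 0.05), beside 2.06% and 1.43% of all genes. Of all genes, 2803 of 22933 and 3018 of 23165 had an unadjusted p under 0.05 there. Of this group, limma-voom called 0 in each, and DESeq2 called 0 in AMO1 and 1 under the label LP1.

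The genes that fold and export antibodies were taken as a list. Of 26 genes for immunoglobulin folding, assembly and secretion in the endoplasmic reticulum, 1 rose and 0 fell in AMO1, 1 rose and 1 fell under the label H929, and 0 of 26 passed under the label LP1 with edgeR, limma-voom or DESeq2, with 3 at an unadjusted p under 0.05. Under the label LP1, 3018 of all 23165 genes had an unadjusted p under 0.05. Over all genes 2.06%, 5.47% and 1.43% were called, so these shares are near the background. Their median log2 fold change was 0.04, 0.01 and -0.06, against -0.02, -0.01 and -0.00 over all genes. PDIA6, a protein disulfide isomerase, rose in AMO1 from 816 ± 38.9 to 989.7 ± 11.3 CPM (log2 0.28, SE 0.0518, edgeR adjusted p = 0.00322) and under the label H929 from 944 ± 44.5 to 1114 ± 18.03 CPM (log2 0.23, SE 0.0497, edgeR adjusted p = 0.00447, and 0.0585 without SCR A). DNAJB9, a co-chaperone of the endoplasmic reticulum, fell under the label H929 from 35.3 ± 1.58 to 31.1 ± 0.800 CPM (log2 -0.20, edgeR adjusted p = 0.0413), a call lost without any 1 of the 6 libraries, where the adjusted p ran from 0.0679 to 0.154. With the replicate block, 2 of 26, PDIA6 and P4HB, rose in AMO1, beside 6.08% of all genes.

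Of 20 regulators of immunoglobulin transcription and RNA processing, 18 were tested in AMO1, where 2 rose and 0 fell, and 18 under the label H929, where 3 rose and 1 fell, beside 2.06% and 5.47% of all genes. With the block in AMO1, 4 rose (HNRNPLL, MEF2C, ELL2 and ZBTB38) and 2 fell (POU2AF1 and POU2F2), beside 6.08% of all genes. HNRNPLL, an RNA-binding protein that regulates alternative splicing in plasma cells, rose in both, from 53.4 ± 3.65 to 79.5 ± 5.79 CPM in AMO1 (log2 0.58, SE 0.0677, edgeR adjusted p = 1.63e-05) and from 38.1 ± 0.929 to 58.2 ± 2.73 CPM under the label H929 (log2 0.60, SE 0.0542, edgeR adjusted p = 6.15e-09). MEF2C, a transcription factor of B cells, rose in AMO1 (log2 0.21, edgeR adjusted p = 0.0379). The call was lost without SCR D (log2 0.18, edgeR adjusted p = 0.230), gN1E C (log2 0.22, 0.144) or gN1E D (log2 0.20, 0.263). Under the label H929, TCF3, the E protein that binds immunoglobulin enhancers, rose by 0.23, and SPIB, an ETS factor, fell by 0.39 (log2 -0.39). BACH2, a repressor of plasma cell differentiation, rose by 0.19. The call was lost without SCR A (log2 0.19, edgeR adjusted p = 0.115), SCR C (log2 0.17, 0.0822), gN1E B (log2 0.21, 0.0771) or gN1E C (log2 0.15, 0.165). Under the label LP1, edgeR called 0 of 20, with 6 at an unadjusted p under 0.05, limma-voom called 1 and DESeq2 2. Of all 23165 genes there, edgeR called 1.43%, with 3018 at an unadjusted p under 0.05, limma-voom called 262 and DESeq2 512.

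In the list of genes for the B cell receptor and for the rearrangement of immunoglobulin genes, RAG2, DNTT and VPREB1 had a mean under 0.1 CPM in each line. EdgeR, limma-voom and DESeq2 called 0 of the 5, 6 and 6 tested in AMO1, H929 and LP1, with 1, 1 and 0 at an unadjusted p under 0.05 in edgeR. Such a p was found for 2803, 4156 and 3018 of all genes in these lines. Over all genes edgeR called 2.06%, 5.47% and 1.43%, so 0 calls in lists this short say little. With the replicate block in AMO1, CD79B, a signalling chain of the B cell receptor, fell by 0.21 on the log2 scale (-0.21, SE 0.0627, edgeR adjusted p = 0.0347), beside 6.08% of all genes called. Receptors that bind immunoglobulin were called in 0 of 4 in each line by edgeR, with 0, 1 and 2 at an unadjusted p under 0.05, while under the label LP1 limma-voom called 1 and DESeq2 2. Of all 23165 genes tested under the label LP1, limma-voom called 262 and DESeq2 512, and 3018 had an unadjusted p under 0.05 in edgeR. The summed level of these receptors under the label LP1 was 76.4 to 86.2 CPM in SCR and 54.8 to 66.7 CPM in gN1E.

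The plasma cell label was checked against markers. All 9 plasma cell markers had a mean over 1 CPM in each line, and under the label H929 SDC1 rose (log2 0.22, edgeR adjusted p = 0.0196) and CD38 fell (log2 -0.21, edgeR adjusted p = 0.00406), beside 5.47% of all genes called. The SDC1 call was lost without SCR A (0.0652), SCR B (0.0510), SCR C (0.0555), gN1E B (0.0932) or gN1E C (0.0818). Of the 9, edgeR called 0 in AMO1 and 0 under the label LP1, with 2 in each at an unadjusted p under 0.05, limma-voom called 0 and 1, and DESeq2 0 and 1. Over all genes edgeR called 2.06% in AMO1 and 1.43% under the label LP1, where limma-voom called 262 and DESeq2 512 of 23165. With the replicate block in AMO1, POU2AF1 fell (log2 -0.15, edgeR adjusted p = 0.0219), beside 6.08% of all genes called. The summed level of the 9 markers was 15504 to 16489 CPM in H929 SCR and 17419 to 18624 CPM in H929 gN1E, most of it SDC1, with a mean of 11902 CPM in SCR and 13958 CPM in gN1E. Of the B cell markers, MS4A1 and CD22 were under 0.1 CPM on average in each line, while FCER2 in AMO1, CR2 under the label H929 and PAX5 under the label LP1 were over 1 CPM. Of the T and NK cell markers, CD3D and CD2 were under 0.1 CPM in each line, CD3E was over 1 CPM in each, and TRAC (AMO1 and H929) and NKG7 (LP1) were over 1 CPM too. Of the 6, 5, 5, 5 and 4 markers of B cells, T and NK cells, monocytes, stromal cells and erythroid cells edgeR called none in any line, beside 2.06%, 5.47% and 1.43% of all genes in AMO1, H929 and LP1. Over all genes 2803 of 22933, 4156 of 23499 and 3018 of 23165 had an unadjusted p under 0.05 in these lines. At an unadjusted p under 0.05 these 5 marker lists held 1, 1, 0, 0 and 0 genes in AMO1, 0 in each under the label H929 and 0, 2, 1, 1 and 1 under the label LP1, where limma-voom called 1 monocyte and 1 erythroid marker. DESeq2 called none of these markers in any line. Monocyte markers summed to 7.03 to 9.62 CPM in LP1 SCR and 3.597 to 6.15 CPM in LP1 gN1E, and B cell markers to 7.27 to 8.19 CPM in AMO1 SCR and 5.58 to 6.96 CPM in AMO1 gN1E. Their part in the member values was not tested.

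Genes whose log2 level followed a member most closely over the 18 libraries are given as a description, since the libraries fall into 3 line labels and these correlations largely order the lines. JCHAIN was followed by ERAP1 (Pearson r = 0.941), DENND1B (0.926) and RB1CC1 (0.922), and IGKC by SMARCC2 (0.981), THRA (0.980) and MRPL10 (0.979). For IGHA1 these were PEG10, HOXB4 and MAGEA10 (each 0.999), for IGHG1 PIEZO2 (0.997), GAS2 (0.994) and ZNF610 (0.992), and for IGLC2 RELN (0.988), WSCD1 (0.986) and NTRK3 (0.985). PEG10, for example, had a mean of 437 CPM in AMO1, 458 CPM under the label H929 and 0.224 CPM under the label LP1, the division seen for IGHA1.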

How the data were processed

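The authors deposited raw counts per gene for each library, obtained by aligning reads to hg38 (STAR 2.7.10a) and assigning read pairs, by strand, to exons of GENCODE release 43 (featureCounts 1.6.4). Read pairs in several genes or places were not counted by these settings. Depth was 28061606 to 69937229 counts. Symbols matched 62686 of 62703 identifiers. Sequences came from the hg38 reference with GENCODE release 44, whose exons of the 9 constant gene members are all in the deposited tables. Groups followed the labels. Counts were fitted per line with edgeR 4.0.16 (TMM, robust quasi-likelihood, at least 10 reads in 1 library, Benjamini-Hochberg threshold 0.05) in R 4.3.3. Levels and interactions came from 1 fit of 18 libraries, and CPM used its TMM scale. All 95% intervals were taken from the normal distribution and not from the edgeR test, so they can be narrower than that test allows. Alternatives were limma-voom 3.58.1, DESeq2 1.42.0, other scalings and filters, the joint fit, an adjusted p of 0.1 with a 1.5-fold change, the replicate block and each library left out. Leaving out the 6 libraries labelled H929 and the share of all immunoglobulin genes were added after seeing the data. The fit was tested on simulated data. Same-letter deviations correlated at 0.198, 0.160 and 0.121 in AMO1 and not above 0.1 throughout in H929 or LP1.

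Members and lists were chosen with earlier results of these data known. The text names the members, NEAT1, the other constant genes and, per list and line, up to 4 called genes by fold change, with the 3 non-immunoglobulin genes of at least 1 CPM most correlated with each of JCHAIN, IGKC, IGLC2, IGHA1 and IGHG1 (log2 of CPM plus 0.5). IGHM was at 0 too often for this.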

Additional observations from a re-analysis of the deposited data

How the results depend on the processing

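By constant genes, the leading heavy chain gene and light chain were the same with raw counts, per kb, and with the members alone, although IGLV3-21 made 36.1% of the leading light chain V counts under the label H929 and the gamma share under the label H929 was 9.00% by raw counts and 4.31% with those members alone. The number of members called with NEAT1 in AMO1 was 1 without a filter, 3 with the replicate block and 0 to 1 with a library left out. Over all genes, 808 of 36147 were called without a filter, 6.08% with the block and 606 without SCR C, the fit that called 1 member. Under the label H929 the number of members called was 1 by limma-voom, 2 by DESeq2, 3 without a filter and 0 to 3 with a library left out. Limma-voom, DESeq2 and the fit without a filter called 998, 1317 and 1629 genes there. No member was called under the label LP1 with any alternative run, beside 87 to 780 genes with a library left out. Without a filter, 1 member, IGHG2, differed in its change between H929 and LP1, beside 368 of 43774 genes. IGHG2 had 0 to 14 counts per library under the label LP1. The cause was not tested. The replicate block changed no other call of a member.

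The difference in the member share (gN1E minus SCR, -0.0196 percentage points in AMO1 and -0.00389 under the label LP1) became 0.0165 and 0.00410 over all immunoglobulin genes, and ran from -0.0817 to 0.0748 and from -0.0137 to 0.00996 with a library left out. With a library left out, log2 fold changes of members with a mean of at least 1 CPM in the line also turned in sign, with no call, for IGHA1 (-0.215 to 0.00577), IGHA2 (-0.333 to 0.0213) and IGHG1 (-0.347 to 0.0494) in AMO1, and for IGHA1 (-0.0669 to 0.135), IGHA2 (-0.0656 to 0.223), IGLC2 (-0.204 to 0.00306) and JCHAIN (-0.0546 to 0.0304, and 0.0111 with library size only) under the label LP1. Below that level, IGHG3 in AMO1 (0.0368) ran from -0.415 to 0.347 with a library left out. It was -0.0130 with the block and -0.00781 with library size only. Of 320 fold changes over 20 pairs of member and line, 294 kept direction and side of the threshold. Members under 1 CPM in a line are limited by depth.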
